A study of Mus musculus with 20 samples.

Results

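The genes described are 8 of the 23090 mouse genes counted in the series, and they belong to 2 linked systems on the cell surface and in plasma. The urokinase system is represented by Plau (urokinase), Plaur (its receptor) and Serpinb2 (plasminogen activator inhibitor type 2). The clotting genes are F3 (tissue factor), F7, F10, F13a1 (the A subunit of factor XIII) and Tfpi (tissue factor pathway inhibitor). The 8 were chosen by symbol, and Plau, F7 and F13a1 were put on the list because their changes in these same libraries had been noted. Their values are therefore given as a description with fold changes and standard errors (SE) and with no test, while the other 5 genes carry a test. All 8 were counted in every file and passed the filter on low counts in all 5 comparisons.

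The libraries were made from poly-A RNA of 2 myeloid populations sorted from subcutaneous tumours of female SCID.beige mice, 6 to 8 weeks old; such hosts lack T and B cells and have impaired NK cells, but keep their myeloid cells. The labels call them myeloid-derived suppressor cells of a monocytic (mMDSC) and a granulocytic kind (gMDSC), and both were gated as CD45+, CD11b+, Ly6C+ and F4-80-, with Ly6G absent on mMDSC and present on gMDSC. Mice of the CBPi groups received 25 mg/kg GNE-781, which blocks the bromodomains of CBP and of its relative EP300, both histone acetyltransferases, by gavage BID for 7 days. Mice of the vehicle groups received MCT on the same schedule, which started at a mean tumour volume of 150 to 200 mm3. There were 5 libraries each of CBPi mMDSC (numbered 6 to 10), CBPi gMDSC (6 to 10), vehicle mMDSC (1 to 5) and vehicle gMDSC (1 to 5). Tumours came from injected cells of the human breast line MDA.MB.231-X1.1 or the mouse colon line CT26. The labels do not tie a library to a line or to a mouse, so a difference between lines cannot be told apart from the spread or from the groups. For the same reason, p-values measure the spread between these samples, part of which may be technical.

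Urokinase cleaves plasminogen to plasmin, a protease that dissolves fibrin and degrades matrix, and its receptor holds it on the surface of leukocytes and tumour cells. Tissue factor starts clotting by binding factor VIIa; that complex activates factor X, which makes thrombin and so fibrin, and factor XIII then cross-links the fibrin. TFPI blocks the complex of tissue factor and factor VIIa together with factor Xa. Monocytes, macrophages and neutrophils are known sources of urokinase and of its receptor, stimulated monocytes are the classical blood source of tissue factor, and factor XIII-A is made by monocytes, macrophages and megakaryocytes.

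Promoter windows, from 250 bases before to 50 bases after an annotated transcript start (RefSeq, GRCm38.p6), were found for 7 of the 8 genes, and Plau had no entry. The following 4 windows are shown because F3, Plaur and Serpinb2 were the tested genes that were higher in gMDSC than in mMDSC under CBPi, and F13a1 had the widest difference of level between the cell types in vehicle. Capitals mark matches to 3 motifs that were chosen after the sequences had been seen, AP-1 (TGANTCA), EGR (GCGNGGGCG) and PU.1 (GAGGAAGT), each searched on both strands. No match overlapped another.
F3, chr3:121723287-121723586, plus strand: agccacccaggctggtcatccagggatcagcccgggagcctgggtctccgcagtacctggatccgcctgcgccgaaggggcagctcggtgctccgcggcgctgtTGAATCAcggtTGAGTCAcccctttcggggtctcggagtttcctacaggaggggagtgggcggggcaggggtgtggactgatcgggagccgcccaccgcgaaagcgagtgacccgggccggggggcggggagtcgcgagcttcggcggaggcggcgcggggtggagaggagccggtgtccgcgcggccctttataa
Plaur, chr7:24462233-24462532, plus strand: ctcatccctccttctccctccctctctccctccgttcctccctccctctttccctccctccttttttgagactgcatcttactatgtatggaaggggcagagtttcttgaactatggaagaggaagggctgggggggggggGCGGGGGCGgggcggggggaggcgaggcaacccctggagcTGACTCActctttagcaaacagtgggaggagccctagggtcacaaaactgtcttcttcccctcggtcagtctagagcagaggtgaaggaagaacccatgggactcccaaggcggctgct
Serpinb2, chr1:107511173-107511472, plus strand: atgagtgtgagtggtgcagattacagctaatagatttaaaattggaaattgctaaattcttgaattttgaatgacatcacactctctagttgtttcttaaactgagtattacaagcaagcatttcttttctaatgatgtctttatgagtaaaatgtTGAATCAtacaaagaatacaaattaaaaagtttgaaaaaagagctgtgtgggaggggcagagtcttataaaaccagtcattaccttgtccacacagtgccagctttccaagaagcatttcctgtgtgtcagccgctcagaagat
F13a1, chr13:37049164-37049463, minus strand: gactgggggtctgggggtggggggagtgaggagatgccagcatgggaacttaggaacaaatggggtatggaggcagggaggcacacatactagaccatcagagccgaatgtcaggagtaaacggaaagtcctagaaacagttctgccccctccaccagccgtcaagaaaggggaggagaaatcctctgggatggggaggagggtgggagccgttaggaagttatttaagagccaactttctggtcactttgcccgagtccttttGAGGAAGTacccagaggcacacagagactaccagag

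The F3 window held AP-1 matches that began 146 and 135 bases before the start. In the Plaur window, 1 AP-1 match began 69 bases and 1 EGR match 109 bases before the start. Serpinb2 had 1 AP-1 match 94 bases before the start, which also lay in a second annotated window of that gene. F13a1 had a pair of annotated windows: the one shown held 1 PU.1 match, 14 bases after its start, and the one at the outer start of the gene (chr13:37050195-37050494) held none of the 3 motifs. The windows of F7, F10 and Tfpi held none of these letters. Over all 32851 mouse promoter windows of this length, 7.81% held an AP-1 match, 5.55% an EGR match and 3.2% a PU.1 match.

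Total counts ran from 12.37 to 26.64 mega-counts per library. The neutrophil markers (10 genes) separated the populations, with summed levels of 7020 to 13400 CPM (counts per mega-count, scaled by TMM over the 20 libraries) in CBPi gMDSC and 8680 to 34900 CPM in vehicle gMDSC, against 246 to 313 CPM in CBPi mMDSC and 393 to 515 CPM in vehicle mMDSC. Ly6g itself, the gene of the sorting antigen, was low, at a mean of 0.973 CPM in CBPi gMDSC and 5.21 CPM in vehicle gMDSC. Adgre1, which encodes the F4-80 antigen that the gate excluded, was present at a mean of 538 CPM in CBPi mMDSC, 807 CPM in CBPi gMDSC, 839 CPM in vehicle mMDSC and 1040 CPM in vehicle gMDSC. Vehicle gMDSC 3 was the library least like the others of its group, where pairs correlated at 0.848 to 0.953 over log2 CPM, and it had the highest summed neutrophil (34900 CPM) and macrophage (21700 CPM) levels. Stromal markers (8 genes) summed to 50 to 467 CPM and epithelial markers (6 genes) to 3.8 to 55.4 CPM over the 20 libraries. Results that rest on vehicle gMDSC 3 are given with and without it.

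In mMDSC, levels of urokinase, F7, F10 and Tfpi were lower under CBPi than in vehicle. Plau averaged 57 ± 10.8 CPM under CBPi and 303 ± 36.3 CPM in vehicle (SD, n = 5 each), F7 0.489 ± 0.596 and 9.33 ± 4.93 CPM, and F10 22.7 ± 2.85 and 84.8 ± 19.3 CPM. Tissue factor went the other way, with 20 ± 8.95 CPM under CBPi and 7.43 ± 1.97 CPM in vehicle. Of the 5 tested genes, F3 rose and F10 and Tfpi fell; over all 11912 genes tested, 3.02% rose and 5.54% fell (edgeR, adjusted p under 0.05). The Tfpi call was lost in 9 of 10 fits that left out 1 library, so that 1 gene, F10, fell there. In 4 of the 8 genes (Plau, F7, F10 and Tfpi) every CBPi library lay below every vehicle library, a pattern found in 5.57% of all genes tested. In none of the 8 did every CBPi library lie above every vehicle library, as in 4.2% of all genes. As 2 of these 4 were chosen for their changes, that count is a description.

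In gMDSC, tissue factor and factor XIII-A RNA were higher and urokinase RNA was lower under CBPi than in vehicle. F3 averaged 273 ± 102 CPM under CBPi and 93 ± 56.1 CPM in vehicle, Plau 74 ± 11 and 215 ± 21.4 CPM, and F13a1 29.7 ± 16.3 and 2.91 ± 1.66 CPM. Of the 5 tested genes, F3 rose, against 4.18% of the 11694 genes tested over the whole table. No tested gene of the 5 fell, by edgeR, DESeq2 or limma, and none had an unadjusted p under 0.05 in that direction, while 5.52% of all genes fell. Without vehicle gMDSC 3 the count that rose was 3 (F3, Serpinb2 and F10), and over all genes 658 rose in that fit, against 489 with all libraries. The CBPi and vehicle libraries of gMDSC did not overlap in 2 of the 8 genes, F13a1 (higher, as in 4.94% of all genes) and Plau (lower, as in 7.23%), both chosen for their changes.

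Between the cell types, the urokinase receptor and tissue factor were higher in gMDSC under either treatment. Factor XIII-A was higher in mMDSC under either treatment, and F7 and F10 were higher in mMDSC in vehicle. In vehicle, Plaur and F3 were higher in gMDSC and F10 was lower, against 13.6% higher and 8.08% lower of 11576 genes. Under CBPi, Plaur, F3 and Serpinb2 were higher in gMDSC, against 20.1% of 11895 genes; none of the 5 was lower by edgeR, DESeq2 or limma or at an unadjusted p under 0.05, against 19.1%. Libraries of the 2 cell types did not overlap in vehicle for Plaur and F3 (higher in gMDSC, as in 11.3% of genes) and for Plau, F7 and F13a1 (lower, as in 8.89%). Under CBPi they did not overlap for Plaur, F3 and Serpinb2 (higher, 14.4%) and for F13a1 (lower, 15.6%).

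The test of whether the response to CBPi differed between the cell types (interaction, response in gMDSC minus response in mMDSC, 20 libraries) called 0.725% of 12688 genes. Of the 5 tested genes it called 0 by edgeR and by DESeq2 and 1, F10, by limma. F10 also had an unadjusted p under 0.05 by edgeR, as did 1454 of the 12688 genes. Without vehicle gMDSC 3, F10 passed, and over all genes 81 were called higher and 27 lower. The other differences between responses were 0.16 ± 0.38 for Plaur (adjusted p = 0.911), 0.14 ± 0.52 for F3 (adjusted p = 0.952), 1.18 ± 1.13 for Serpinb2 (adjusted p = 0.76) and 1.07 ± 0.58 for Tfpi (adjusted p = 0.502). Without vehicle gMDSC 3 the Serpinb2 difference was 3.33 ± 0.87 (adjusted p = 0.0765). The fall of Tfpi, which passed in mMDSC, is thus not shown to differ from the response of gMDSC.

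**Figure D1:**
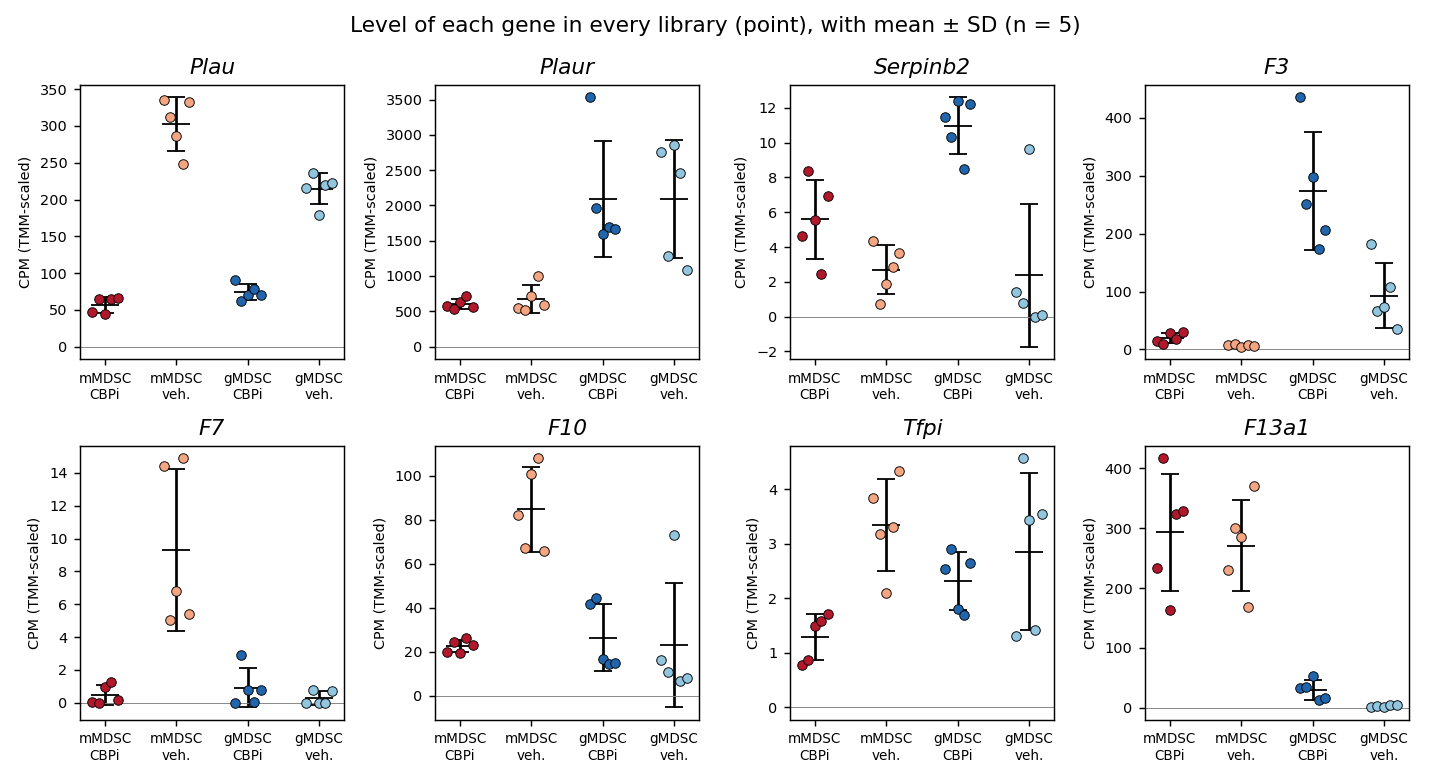
Level of each of the 8 genes (vertical axis, CPM after TMM scaling over the 20 libraries) in CBPi and vehicle libraries of mMDSC and gMDSC; each point is a library, and bars show the mean ± SD of 5. Plau is at most 90.7 CPM in the CBPi libraries and at least 179 CPM in the vehicle libraries, F3 is highest in CBPi gMDSC, and vehicle gMDSC 3 stands above its group in Serpinb2 (9.63 CPM) and F10 (73.2 CPM).

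Plau (Entrez gene 18792, chr14:20836662-20843388) encodes urokinase, the protease of the system. In CBPi mMDSC 6 to 10 it measured 46.4, 64.1, 44.1, 64.8 and 65.6 CPM, against 335, 312, 286, 248 and 332 CPM in vehicle mMDSC 1 to 5. In CBPi gMDSC it measured 90.7, 61.9, 69.6, 78.5 and 69.5 CPM, against 215, 236, 179, 220 and 223 CPM in vehicle gMDSC. All 10 CBPi libraries lay below all 10 vehicle libraries. The log2 fold change of CBPi over vehicle was -2.42 ± 0.15 (SE) in mMDSC and -1.50 ± 0.15 in gMDSC, and the response in gMDSC minus that in mMDSC was 0.87 ± 0.20. In a bulk library, fewer cells that carry a transcript and less of the transcript per cell cannot be told apart. The order of the cell types differed with treatment: gMDSC over mMDSC was 0.43 ± 0.16 under CBPi, where libraries overlapped, and -0.48 ± 0.13 in vehicle, where they did not. Leaving out any 1 library kept the mMDSC value between -2.47 and -2.33 and the gMDSC value between -1.58 and -1.44.

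Plaur (18793, chr7:24460937-24475970), the receptor that anchors urokinase to the membrane, showed no detectable response to CBPi and a higher level in gMDSC. It measured 3530, 1970, 1600, 1700 and 1660 CPM in CBPi gMDSC and 570, 536, 626, 723 and 557 CPM in CBPi mMDSC. In vehicle it measured 2750, 1280, 2860, 2460 and 1090 CPM in gMDSC and 544, 514, 714, 1000 and 587 CPM in mMDSC. Every gMDSC library lay above every mMDSC library. The log2 fold change of gMDSC over mMDSC was 1.85 ± 0.21 under CBPi (edgeR adjusted p = 1.59e-05) and 1.64 ± 0.29 in vehicle (adjusted p = 0.00133). CBPi over vehicle was -0.17 ± 0.17 in mMDSC (adjusted p = 0.628) and 0.05 ± 0.30 in gMDSC (adjusted p = 0.939), both within their errors of 0. The mMDSC value was 0.03 without vehicle mMDSC 4, and the gMDSC value was -0.22 without CBPi gMDSC 6.

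Serpinb2 (18788, chr1:107500892-107525600) encodes an intracellular and secreted serpin that inhibits urokinase. It measured 11.5, 10.3, 12.4, 8.46 and 12.2 CPM in CBPi gMDSC, against 1.4, 0.761, 9.63, 0 and 0.0876 CPM in vehicle gMDSC. The library with no count, vehicle gMDSC 4, allows up to 0.265 CPM (3 counts), and this limit covers counting error only. Of the 5 vehicle libraries, 4 lay far below the CBPi libraries and vehicle gMDSC 3 lay within their range. The log2 fold change was 2.27 ± 0.99 (edgeR adjusted p = 0.166), and without vehicle gMDSC 3 it was 4.42 ± 0.74 (adjusted p = 0.00307); over all alternatives the adjusted p ran from 0.00307 to 0.271. By limma it passed with all 10 libraries, at 4.62 (adjusted p = 0.00951). In mMDSC the levels were 4.62, 8.38, 5.55, 2.47 and 6.92 CPM under CBPi, against 4.32, 0.737, 1.89, 2.88 and 3.64 CPM in vehicle, which overlap, and the log2 fold change was 1.04 ± 0.46 (adjusted p = 0.206). Serpinb2 was higher in gMDSC than in mMDSC under CBPi, with a log2 fold change of 1.03 ± 0.30 (adjusted p = 0.0149), a call that was lost when all 20 libraries shared one fit (adjusted p = 0.376). In vehicle the same difference was -0.19 ± 1.09 (adjusted p = 0.931), and -2.30 without vehicle gMDSC 3 (adjusted p = 0.0946).

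Of 15 other genes of the plasminogen system, 2 of 10 tested passed in gMDSC (1 higher, beside 4.18% of all genes, and 1 lower, beside 5.52%) and 1 of 9 in mMDSC (lower, beside 5.54%). In gMDSC, Serpine2, which encodes protease nexin 1, an inhibitor of urokinase and thrombin, fell to 5.75 ± 2.4 CPM under CBPi, against 51.2 ± 15 CPM in vehicle (log2 fold change -3.12 ± 0.33, edgeR adjusted p = 0.000124). Igf2r, a receptor that binds plasminogen and the urokinase receptor, rose to 65.5 ± 36.3 CPM against 26.6 ± 3.29 CPM (1.34 ± 0.33, adjusted p = 0.0232), with overlapping libraries. In mMDSC, Stab1, a scavenger receptor of macrophages, fell to 103 ± 28 CPM against 210 ± 39.1 CPM (-1.04 ± 0.20, adjusted p = 0.00637). The list's median log2 fold change was -0.03 in mMDSC and 0.07 in gMDSC, beside 0.01 and 0 over all genes.

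Among the 7 ovalbumin-type serpins, relatives of Serpinb2 that act mostly inside cells, 2 of 7 tested fell in mMDSC, beside 5.54% of all genes, and 2 of 5 tested fell in gMDSC, beside 5.52%. Serpinb10, a serpin of haematopoietic cells, fell in mMDSC to 1.02 ± 0.36 CPM under CBPi, against 7.15 ± 2.95 CPM in vehicle (log2 fold change -2.81 ± 0.39, edgeR adjusted p = 0.00071). Serpinb8 fell in both populations, by 0.87 ± 0.20 on the log2 scale in mMDSC (adjusted p = 0.0147) and by 2.39 ± 0.38 in gMDSC (adjusted p = 0.00232). Serpinb1a, an inhibitor of neutrophil proteases, fell in gMDSC to 1.92 ± 0.995 CPM against 9.93 ± 5.37 CPM (-2.31 ± 0.50, adjusted p = 0.0135). The median log2 fold change over the list was -0.43 in mMDSC and -0.59 in gMDSC, beside 0.01 and 0 over all genes. The fold changes of Serpinb2 had the opposite sign.

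F3 (14066, chr3:121723537-121735052) encodes tissue factor, the membrane receptor for factor VIIa. It measured 14.5, 8.74, 28.6, 18.5 and 29.3 CPM in CBPi mMDSC, against 7.95, 10.2, 4.99, 7.89 and 6.16 CPM in vehicle mMDSC. The groups overlapped by 1 library on each side. The log2 fold change was 1.41 ± 0.32 (edgeR adjusted p = 0.0146, and at most 0.0462 over the alternatives). In CBPi gMDSC it measured 435, 251, 298, 174 and 207 CPM, against 182, 66.2, 73, 108 and 35.6 CPM in vehicle gMDSC, where vehicle gMDSC 1 lay above the lowest CBPi library. The log2 fold change in gMDSC was 1.61 ± 0.37 (adjusted p = 0.017, at most 0.0483 over the alternatives), and 1.52 without vehicle gMDSC 3. The 2 responses differed by 0.14 ± 0.52 (adjusted p = 0.952), less than its SE. The cell types were further apart than the treatments: gMDSC over mMDSC was 3.83 ± 0.35 under CBPi (adjusted p = 2.27e-06) and 3.64 ± 0.39 in vehicle (adjusted p = 2.59e-05), with no overlap in either. As the neutrophil markers differ between the cell types in the same direction, their part in the F3 level was not tested.

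Of 4 genes known to alter the activity of tissue factor on the cell surface, 1 rose in CBPi gMDSC, beside 4.18% of all genes. It was P4hb, a protein disulfide isomerase, at 1860 ± 647 CPM, against 693 ± 156 CPM in vehicle (log2 fold change 1.46 ± 0.25, edgeR adjusted p = 0.00346). The scramblase genes Ano6 and Xkr8 and the phosphatidylserine-binding Anxa5 did not pass in either population (adjusted p from 0.0504 to 0.7). Anxa5 was lower in gMDSC than in mMDSC, at 359 ± 68.3 against 765 ± 57.9 CPM under CBPi (-1.04 ± 0.14, adjusted p = 8.60e-05) and 489 ± 30.5 against 962 ± 105 CPM in vehicle (-0.96 ± 0.13, adjusted p = 0.000119).

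F7 (14068, chr8:13025506-13035809) encodes factor VII, a vitamin K-dependent protease best known as a liver product. It measured 0.0392, 0, 0.962, 1.29 and 0.155 CPM in CBPi mMDSC, against 14.4, 5.04, 6.8, 14.9 and 5.43 CPM in vehicle mMDSC. Every CBPi library was below every vehicle library, and the log2 fold change was -4.27 ± 0.87. In gMDSC the gene was near the limit of detection, at 0, 2.91, 0.803, 0.0532 and 0.769 CPM under CBPi and 0, 0.761, 0, 0 and 0.745 CPM in vehicle. The 3 vehicle gMDSC libraries without a count allow up to 0.3, 0.286 and 0.265 CPM. The gMDSC fold change, 1.50 ± 1.31, rested on 87 counts under CBPi and 26 in vehicle and came to 0.38 without CBPi gMDSC 7. The difference between the responses was 5.70 ± 1.65. In vehicle, gMDSC over mMDSC was -4.76 ± 0.95, and under CBPi it was 0.95 ± 1.21, with overlapping libraries and a value of -0.18 without CBPi gMDSC 7.

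F10 (14058, chr8:13037308-13056676) encodes factor X, the protease that makes thrombin, and its annotated start lies 1498 bases beyond the end of F7. It measured 19.9, 24.3, 19.6, 26.2 and 23.3 CPM in CBPi mMDSC, against 82.1, 67.2, 101, 108 and 65.7 CPM in vehicle mMDSC. The 2 groups did not overlap. The log2 fold change was -1.91 ± 0.17 (edgeR adjusted p = 3.83e-05, and at most 0.0265 over the alternatives). In gMDSC it measured 41.8, 44.6, 16.5, 14.4 and 15 CPM under CBPi, against 16.2, 11, 73.2, 6.89 and 7.89 CPM in vehicle. The highest and the lowest libraries both belonged to the vehicle group, and the fold change was 0.25 ± 0.62 (adjusted p = 0.842). Without vehicle gMDSC 3, the library at 73.2 CPM, it was 1.37 ± 0.41 (adjusted p = 0.0471), the opposite direction to mMDSC.

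The difference between the F10 responses was 2.11 ± 0.70 (edgeR adjusted p = 0.217) with all libraries and 3.25 ± 0.46 (adjusted p = 0.00166) without vehicle gMDSC 3; limma gave 2.62 (adjusted p = 0.0365) with all. Over all alternatives its adjusted p ran from 0.00166 to 0.39. In vehicle F10 was lower in gMDSC than in mMDSC, by 1.88 ± 0.58 on the log2 scale (adjusted p = 0.0349). That call was lost in 8 of 10 fits that left out 1 library (adjusted p up to 0.0857), whereas without vehicle gMDSC 3 the difference was -3.02 ± 0.28 (adjusted p = 8.88e-06). The call was kept without vehicle mMDSC 5 (adjusted p = 0.0475). Under CBPi the cell types had 26.5 ± 15.3 CPM in gMDSC and 22.7 ± 2.85 CPM in mMDSC (0.27 ± 0.32, adjusted p = 0.537).

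Whether the responses of the genes around F7 and F10 differ from those of F7 and F10 was not tested. Genes that did not pass the filter on low counts in mMDSC were left out, so those named here need not be adjacent to F7 or F10. Of the 3 tested genes on each side (Tubgcp3, Atp11a and Mcf2l; Pcid2, Cul4a and Lamp1), the adjusted p in mMDSC was from 0.331 to 1.0 (edgeR), and the log2 fold changes were between -1.34 ± 0.76 (Mcf2l, adjusted p = 0.334) and 0.34 ± 0.19 (Cul4a, adjusted p = 0.331). Mcf2l, the tested gene nearest to F7 on its side, was at 1.24 ± 1.28 CPM under CBPi and 3.07 ± 1.97 CPM in vehicle, the same direction as F7. In gMDSC, Atp11a rose to 72.9 ± 19.2 CPM under CBPi, against 35.2 ± 7.53 CPM in vehicle (adjusted p = 0.00778), and Pcid2 to 47.1 ± 10.9 CPM, against 20.9 ± 8.54 CPM (adjusted p = 0.0356).

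Tfpi (21788, chr2:84432855-84476775), the inhibitor of the tissue factor pathway, was sparse. It measured 0.784, 0.874, 1.49, 1.58 and 1.71 CPM in CBPi mMDSC, against 3.83, 3.18, 2.09, 3.3 and 4.34 CPM in vehicle mMDSC, from 177 counts under CBPi and 365 in vehicle. The groups did not overlap, and the log2 fold change was -1.39 ± 0.38 (edgeR adjusted p = 0.0387). The call was lost in 9 of 10 fits without 1 library (adjusted p up to 0.0986), without the filter on low counts (0.0607) and in the fit of all 20 libraries (0.0558). In gMDSC it measured 2.53, 2.91, 1.81, 1.7 and 2.64 CPM under CBPi and 1.3, 4.57, 3.43, 1.41 and 3.55 CPM in vehicle, with overlap and a fold change of -0.28 ± 0.50 (adjusted p = 0.769). Endothelium is the best known source of TFPI. Its markers (8 genes, none at 0 in any group) summed to 66.7 to 148 CPM in CBPi mMDSC and 100 to 271 CPM in vehicle mMDSC. In gMDSC they summed to 57.4 to 80.5 CPM under CBPi and 15.2 to 89.9 CPM in vehicle. Most of the mMDSC sum was Kdr (mean 92.7 CPM under CBPi, 146 CPM in vehicle) and Pecam1 (18 and 32.4 CPM). Cdh5, Tek, Cldn5, Esam, Emcn and Egfl7 averaged at most 1.83 CPM there. Of these only Tek had a higher mean under CBPi (0.666 against 0.428 CPM). The part of the endothelial markers in the Tfpi level was not tested. The cell types differed in Tfpi by 0.90 ± 0.42 under CBPi (adjusted p = 0.105, but 0.046 in DESeq2) and by -0.20 ± 0.47 in vehicle (adjusted p = 0.811).

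Of the 10 other anticoagulant genes, 1 of 5 tested passed in gMDSC, upwards, as did 4.18% of all genes. Thbd, thrombomodulin, which turns thrombin into an activator of protein C, rose to 26.3 ± 10.9 CPM under CBPi, against 10.7 ± 3.23 CPM in vehicle (log2 fold change 1.34 ± 0.32, edgeR adjusted p = 0.0211). Between cell types in vehicle, 2 of 5 tested were higher in gMDSC than in mMDSC, beside 13.6% of all genes. They were Gas6 (94.7 ± 32.1 against 43.8 ± 20 CPM, edgeR adjusted p = 0.0248) and Serpind1 (1.74 ± 0.852 against 0.336 ± 0.255 CPM, adjusted p = 0.0452). Serpind1 was sparse and did not pass the filter on low counts in the same comparison under CBPi. Under CBPi, 2 of 5 tested were lower in gMDSC, beside 19.1% of all genes. They were Procr, the endothelial protein C receptor (6.07 ± 3.42 against 22.9 ± 24.3 CPM, adjusted p = 0.0174), and Pros1, protein S (68.8 ± 12.1 against 97 ± 14.5 CPM, adjusted p = 0.0369). Of 14 other genes of the cascade, 5 were tested in mMDSC and 4 in gMDSC, with adjusted p for CBPi from 0.0708 to 0.948. The genes of vitamin K and factor processing (4 of 5 tested in each population) had adjusted p for CBPi from 0.0763 to 0.92, and the protease-activated receptors (2 of 4 tested in each) from 0.411 to 0.971. Fgl2, a membrane prothrombinase of myeloid cells, was higher in gMDSC than in mMDSC, at 797 ± 90.4 against 435 ± 67.4 CPM under CBPi (0.93 ± 0.14, adjusted p = 0.000149) and 1290 ± 407 against 487 ± 61.1 CPM in vehicle (1.42 ± 0.21, adjusted p = 0.000348).

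F13a1 (74145, chr13:36867178-37050244) encodes the catalytic subunit of factor XIII. It measured 233, 417, 164, 323 and 328 CPM in CBPi mMDSC, against 230, 301, 285, 168 and 370 CPM in vehicle mMDSC. These groups overlapped throughout, and the log2 fold change was 0.11 ± 0.25. In CBPi gMDSC it measured 32.4, 34.9, 52.9, 12.7 and 15.5 CPM, against 1.6, 3.38, 0.763, 4.42 and 4.38 CPM in vehicle gMDSC. Every CBPi library was above every vehicle library of gMDSC, the log2 fold change was 3.36 ± 0.52, and the response in gMDSC minus that in mMDSC was 3.19 ± 0.55. The gMDSC were below the mMDSC in both treatments, with log2 fold changes of -3.25 ± 0.38 under CBPi and -6.47 ± 0.44 in vehicle.

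Marker genes of cells that carry factor XIII-A moved as follows beside F13a1 in gMDSC. The monocyte markers (10 of 10 detected) summed to 2270 to 3100 CPM under CBPi and 2720 to 4760 CPM in vehicle; 4 of 10 fell by edgeR, beside 5.52% of all genes. These were Cx3cr1 (197 ± 25.8 against 307 ± 57.8 CPM, adjusted p = 0.0385), Irf8 (197 ± 40.6 against 300.0 ± 22 CPM, adjusted p = 0.0497), Ly6c2 (16.1 ± 3.56 against 44.5 ± 21.1 CPM, adjusted p = 0.0141) and Ccr2 (34.2 ± 4.85 against 218 ± 83.7 CPM, adjusted p = 0.000195). Fn1 (46.6 ± 20.3 against 28.1 ± 15.4 CPM, adjusted p = 0.231), Klf4 (53 ± 25.9 against 27.3 ± 8.52 CPM, adjusted p = 0.0633) and Chil3 (3.54 ± 1.09 against 2.41 ± 2.53 CPM, adjusted p = 0.654) had higher means under CBPi and did not pass. The platelet and megakaryocyte list (9 genes) summed to 53.5 to 71.2 CPM under CBPi and 29.1 to 86.5 CPM in vehicle, most of it Pf4, with Gp6 at 0 in both groups. Of the sparse members, Ppbp, which did not pass the filter on low counts, was at 0.553 ± 0.321 CPM under CBPi and 0.0175 ± 0.0392 CPM in vehicle with no overlap, and Itgb3 (3.24 ± 1.04 against 1.02 ± 1.31 CPM, adjusted p = 0.234) and Gp9 (2.17 ± 0.846 against 1.14 ± 1.75 CPM, adjusted p = 0.539) overlapped; their part in the F13a1 level was not tested. In mMDSC, where the F13a1 groups overlapped, the platelet and megakaryocyte list summed to 83.2 to 266 CPM under CBPi and 25.4 to 53.4 CPM in vehicle. There Pf4 rose (137 ± 73.7 against 38 ± 9.71 CPM, log2 fold change 1.84 ± 0.31, edgeR adjusted p = 0.00261). Ppbp (1.28 ± 0.216 against 0.371 ± 0.379 CPM) and Gp9 (3.15 ± 1.8 against 1.24 ± 0.533 CPM) also had higher means, as did Itga2b, Treml1 and Itgb3. Gp1ba, Gp6 and Gp1bb had lower means, and Gp1bb had no count in CBPi mMDSC. The macrophage markers summed to 6630 to 12700 CPM in CBPi gMDSC and 13100 to 21700 CPM in vehicle gMDSC. In mMDSC they summed to 6180 to 8320 CPM under CBPi and 8640 to 10800 CPM in vehicle. By edgeR 5 of 10 fell and 1 rose in mMDSC, beside 5.54% and 3.02% of all genes. Mrc1 (138 ± 13.1 against 83.3 ± 22.4 CPM) and Mertk (73.7 ± 17.4 against 51.8 ± 13.8 CPM) had higher means in CBPi mMDSC. Adgre1, C1qa, C1qb, C1qc, Ms4a7, Gpnmb, Cd5l and Vcam1 had lower means there. Ms4a7 was at 565 ± 85.7 against 1430 ± 266 CPM and Gpnmb at 6.28 ± 3.55 against 40.2 ± 15.3 CPM. The monocyte list in mMDSC summed to 4520 to 5850 CPM under CBPi and 6370 to 7410 CPM in vehicle. That sum and the macrophage sum in mMDSC were both lower under CBPi, as were Plau, F7 and F10. Of the monocyte genes 4 of 10 fell, beside 5.54% of all genes. Klf4 (119 ± 25.9 against 74.6 ± 40.7 CPM) and Chil3 (109 ± 45.9 against 88.8 ± 37.8 CPM) had higher means in CBPi mMDSC, and the rest of the monocyte list had lower means. In CBPi gMDSC 4 of 10 neutrophil markers fell, beside 5.52% of all genes. The part of these marker lists in the results was not tested.

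Of 4 other transglutaminases, 2 were tested, and 1 rose in CBPi gMDSC, beside 4.18% of all genes. Tgm2, tissue transglutaminase, rose in gMDSC to 3300 ± 1250 CPM under CBPi, against 1190 ± 248 CPM in vehicle (log2 fold change 1.51 ± 0.25, edgeR adjusted p = 0.00277). Under CBPi it was higher in gMDSC than in mMDSC (1150 ± 370 CPM in mMDSC; 1.57 ± 0.27, adjusted p = 0.000519), and so was Tgm1, the keratinocyte transglutaminase, at 40.1 ± 34.6 against 7.38 ± 3.25 CPM (2.49 ± 0.47, adjusted p = 0.00105). These were the 2 genes tested, and 20.1% of all genes were higher in gMDSC under CBPi. F13a1 was higher in mMDSC, unlike Tgm2 and Tgm1, and like Tgm2 it was higher in CBPi gMDSC than in vehicle gMDSC.

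**Figure D2:**
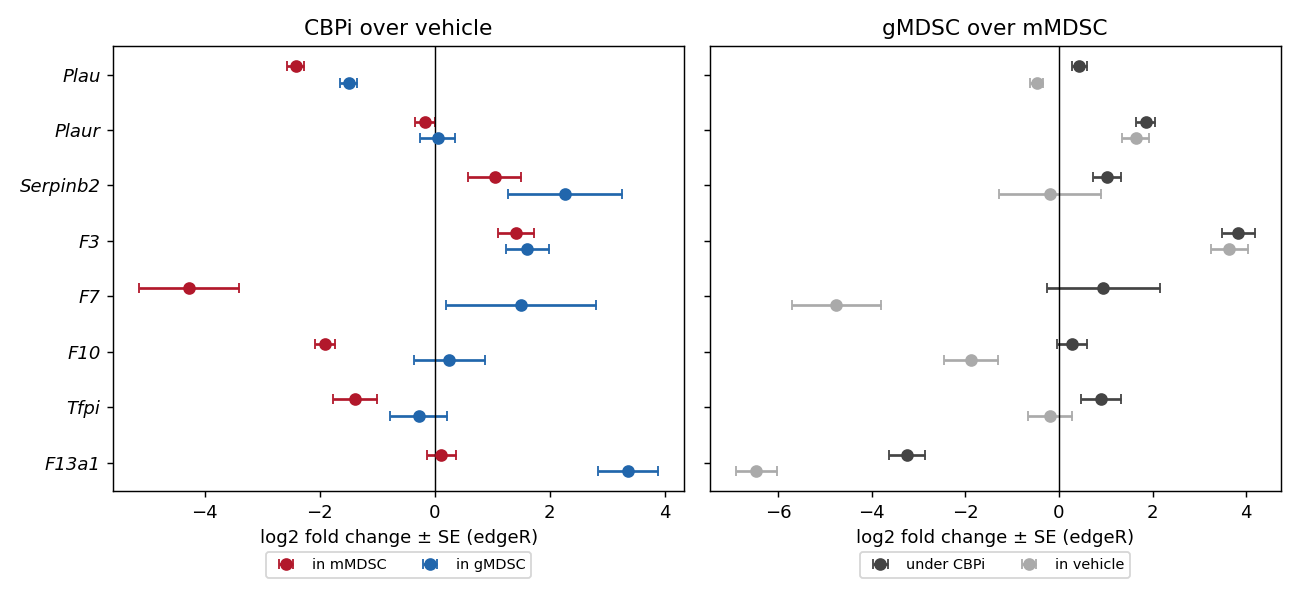
Log2 fold changes (horizontal axis, edgeR, bars ± SE) of the 8 genes for CBPi over vehicle in mMDSC and gMDSC (left) and for gMDSC over mMDSC under CBPi and in vehicle (right). Plau lies left of 0 in both cell types and F3 right of 0 in both. The values in mMDSC and gMDSC are -4.27 and 1.50 for F7, -1.91 and 0.25 for F10, and 0.11 and 3.36 for F13a1. The difference between the F10 responses did not pass (edgeR adjusted p = 0.217). The Plau responses differed by 0.87 ± 0.20, and the differences of Plau, F7 and F13a1 carry no test.

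Compared per length, in CPM per kilobase of the deposited gene width, Plaur was the most abundant of the 8 in all 4 groups, at 574 ± 71.7 in CBPi mMDSC, 1990 ± 777 in CBPi gMDSC, 640 ± 191 in vehicle mMDSC and 1990 ± 800 in vehicle gMDSC. The next gene differed between groups. It was F13a1 in CBPi mMDSC (133 ± 44.2) and F3 in CBPi gMDSC (309 ± 115), whereas in vehicle it was Plau, at 233 ± 27.8 in mMDSC and 165 ± 16.4 in gMDSC. In vehicle gMDSC the ranges of Plau (138 to 182) and F3 (40.3 to 206) overlapped, so their order is not settled. Plau ranked below F13a1 in CBPi mMDSC (43.8 ± 8.28) with no overlap of the libraries, while F3 (22.6 ± 10.1) and F10 (15.3 ± 1.92) overlapped there. In vehicle mMDSC F13a1 followed Plau at 123 ± 34.7, then F10 at 57.2 ± 13 and F3 at 8.4 ± 2.23, each step without overlap. F7, Tfpi and Serpinb2 were the lowest 3 in both mMDSC groups and in CBPi gMDSC, at 0.311 to 8.8 CPM per kilobase on average.

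**Figure D3:**
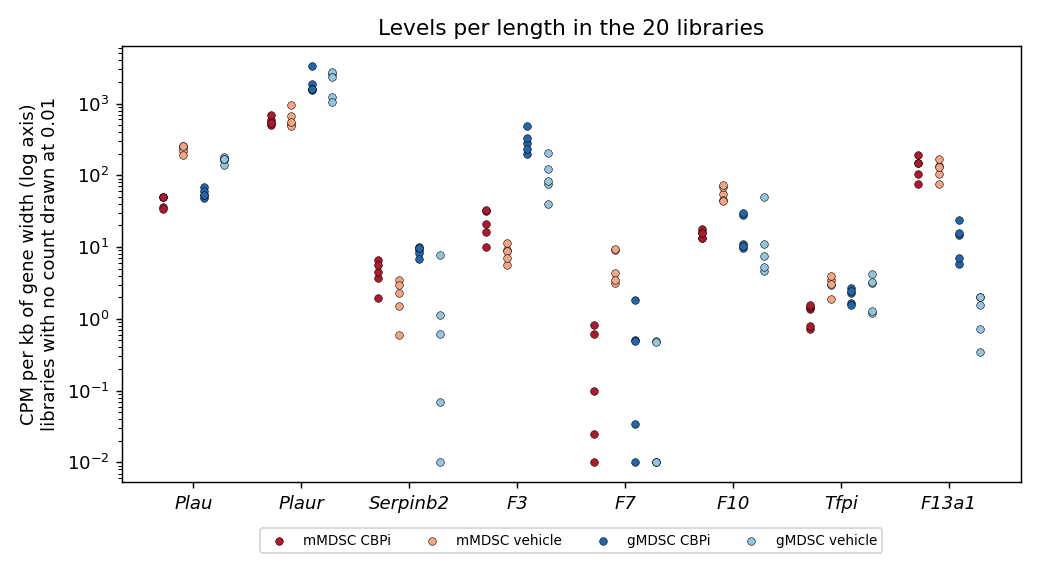
CPM per kilobase of deposited gene width (vertical log axis) of the 8 genes in each library of CBPi mMDSC, vehicle mMDSC, CBPi gMDSC and vehicle gMDSC; libraries with no count are drawn at 0.01. Plaur is the top gene in all groups, and F7 is at least 3.21 in vehicle mMDSC and at most 1.85 in the other groups.

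For each of the 8 genes, the 3 genes with the highest Pearson correlation of log2 CPM over the 20 libraries were taken as a description; the libraries share their group, so r was also computed on deviations from the 4 group means. Plau was most like Acp5 (r = 0.938, but -0.224 within groups), Lat2 (0.938, -0.147) and Rab3il1 (0.923, -0.087), so the likeness lay between the groups. Plaur was most like Rab20 (0.988, and 0.948 within groups), Litaf (0.977, 0.922) and Fcgr3 (0.971, 0.87). F3 was most like Ifit1 (0.966, 0.56), Ell2 (0.964, 0.733) and Ndel1 (0.959, 0.719). F13a1 was most like Ifi211 (0.981, 0.721), Emp1 (0.96, 0.635) and Itgb7 (0.952, 0.371). F10 was most like Lgals3 (0.9, 0.819), F7 like Bex6 (0.859, 0.72), Serpinb2 like Sart1 (0.829, 0.681) and Tfpi like Etv3 (0.785, 0.599). Among the 8 themselves, Plaur and F3 had the highest r (0.854, and 0.54 within groups), and Plaur and F13a1 the lowest (-0.818, -0.369). Serpinb2 and F10 had an r of 0.364 over the libraries and 0.731 within groups, in which vehicle gMDSC 3 was high in both.

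Over the 63 genes of the wider lists, 37 were tested in mMDSC, and 3 fell and 0 rose for CBPi by edgeR. At an unadjusted p under 0.05 by edgeR 2 rose and 5 fell, and 2664 of all 11912 genes had such a p in either direction. By DESeq2 1 rose, beside 676 of all genes, and by limma 0 rose. DESeq2 gave 5 that fell; over all genes 3.02% rose and 5.54% fell by edgeR. In gMDSC 36 were tested, and 4 rose (Igf2r, Thbd, Tgm2 and P4hb) and 3 fell (Serpine2, Serpinb1a and Serpinb8), beside 4.18% and 5.52% of all genes. By DESeq2 6 rose and 7 fell, and in the fit of all 20 libraries 4 rose and 7 fell. Without vehicle gMDSC 3, 7 rose and 6 fell by edgeR, where 658 of all genes rose and 736 fell. The number that rose was 2 without CBPi gMDSC 6 or 7, and the number that fell was 5 without vehicle gMDSC 4. Between the cell types, 5 of 37 were higher and 5 lower in gMDSC in vehicle (3 higher without vehicle gMDSC 4, vehicle mMDSC 2 or vehicle mMDSC 4, and 8 lower without vehicle gMDSC 3; 8 higher by DESeq2), beside 13.6% higher and 8.08% lower of all genes. Under CBPi 10 of 38 were higher and 10 lower, beside 20.1% and 19.1%. In both treatments Lrp1, the receptor that clears urokinase bound to its inhibitor, was lower in gMDSC than in mMDSC (205 ± 14.5 against 518 ± 86 CPM under CBPi, edgeR adjusted p = 6.93e-06, and 187 ± 58.2 against 525 ± 94 CPM in vehicle, adjusted p = 0.000462). So was S100a10, a plasminogen receptor (14.7 ± 5.03 against 153 ± 33.3 CPM under CBPi, adjusted p = 3.64e-07, and 16.7 ± 8.45 against 152 ± 56.6 CPM in vehicle, adjusted p = 0.000171). Lman1, which carries factors V and VIII out of the endoplasmic reticulum, was also lower in gMDSC in both (48 ± 5.4 against 79.7 ± 6.44 CPM under CBPi, adjusted p = 0.000829, and 51.5 ± 10.8 against 77.5 ± 13.4 CPM in vehicle, adjusted p = 0.0389). The interaction called 0 of 43 by edgeR and by limma, and 3 by DESeq2, which called 184 genes higher and 93 lower over all genes. By edgeR 12 of the 43 had an unadjusted p under 0.05, beside 1454 of all 12688 genes.

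**Figure D4:**
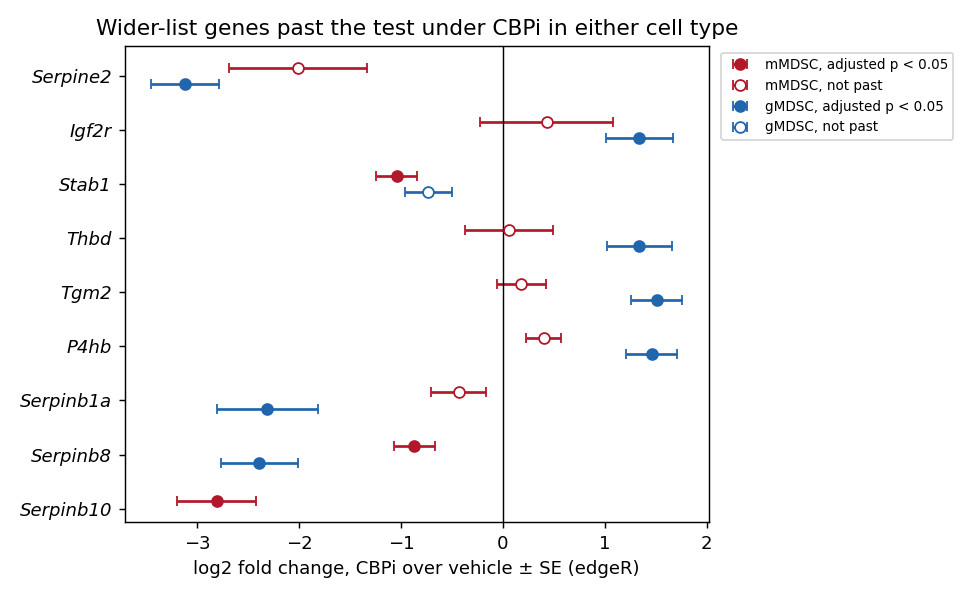
Log2 fold change of CBPi over vehicle (horizontal axis, edgeR, bars ± SE) in mMDSC and gMDSC for the genes of the wider lists that passed in either population; filled points passed and open points did not. Serpine2, Serpinb1a and Serpinb8 fell in gMDSC, Thbd, Tgm2, P4hb and Igf2r rose there, and Serpinb10, which was not tested in gMDSC, fell in mMDSC.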

How the data were processed

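Each of the 20 files gave, for 23090 genes with an Entrez ID, a read count, a gene width and an RPKM. Tests used the counts, which the authors deposited as whole numbers without normalization. The RPKM values, also deposited by the authors, served only as an alternative level; counts made up 50.25% to 62.44% of the totals behind them. Reads were aligned with GSNAP to GRCm38, per the submitters' processing notes. How reads were counted, and whether by strand, is not given in the sources used here. The RefSeq gene table of GRCm38.p6 gave symbols and coordinates for 21647 IDs and none for 1443.

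Tests used edgeR 4.0.16 in R 4.3.3 (TMM, filterByExpr with minimum count 10 and minimum total 15, quasi-likelihood test, Benjamini-Hochberg over all genes tested, threshold 0.05) on the 10 libraries of a comparison, or on 20 for the interaction. The SE is the log2 fold change divided by the square root of F, and levels are CPM scaled by TMM over 20 libraries. The code was tested on simulated counts. DESeq2 1.42.0, limma 3.58.1, RLE size factors, no filter, a fit of all libraries, a replicate block and leaving out each library were alternatives. The 8 genes, the 63 genes of 8 wider lists and 7 marker lists were chosen with earlier results of these data known; 2 other list genes are not reported here. Of each wider list the 2 genes with the smallest p per comparison could be named, and others were named after their values were seen. Libraries within a group differed beyond sampling noise in every pair (chi-square over degrees of freedom 20.7 or more). Each was counted as 1 replicate, but this check cannot tell different mice from separate preparations of the same mouse.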

Additional observations from a re-analysis of the deposited data

Results flagged for a closer look

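In 4 of 32 sets of 5 libraries examined (8 genes in 4 groups), 1 library lay far from the other 4 by Dixon's criterion. Chance meets it in about 1 set in 20 where values are normally distributed. It was applied to CPM without logarithms, and some sets were skewed or near 0, so that rate need not hold here. Vehicle gMDSC 3 was high in Serpinb2, at 9.63 CPM where the other 4 had 0 to 1.4 CPM, and in F10, at 73.2 CPM where the other 4 had 6.89 to 16.2 CPM. Plaur was high in CBPi gMDSC 6, at 3530 CPM where the other 4 had 1600 to 1970 CPM. F7 was high in CBPi gMDSC 7, at 2.91 CPM where the other 4 had 0 to 0.803 CPM.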

How the results depend on the processing

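Genes higher in CBPi mMDSC numbered 360, and 676 by DESeq2 and 168 in the fit of all 20 libraries; of the 5 tested genes that fell there (2), 1 was left without the filter and in the fit of all 20. In CBPi gMDSC, 489 genes were higher (860 by DESeq2, 839 in the fit of all 20) and 646 lower (1054, 1350); the tested genes that rose (1) numbered 2 by limma. In vehicle, 935 genes were lower in gMDSC than in mMDSC (1453 in the fit of all 20). The interaction called 63 genes higher (184 by DESeq2) and 29 lower (93 by DESeq2, 17 by limma), and of the 5 tested genes 0 (1 by limma).

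Leaving out 1 library gave 221 to 448 genes higher in CBPi mMDSC, with 1 to 2 tested genes lower; 229 to 658 higher and 358 to 736 lower in CBPi gMDSC, with 1 to 3 tested genes higher; 676 to 1521 lower in vehicle gMDSC, with 0 to 1 tested genes lower; and 23 to 85 higher and 10 to 32 lower for the interaction, with 0 to 1 tested genes higher.

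Some log2 fold changes near 0 reversed, and the cause was not tested. Plaur in gMDSC was -0.01 in the fit of all 20. Leaving out 1 library gave -0.26 to 0.03 for Plaur in mMDSC, -0.22 to 0.18 for Plaur in gMDSC, -0.06 to 0.26 for F13a1 in mMDSC and -0.03 to 1.37 for F10 in gMDSC. For gMDSC over mMDSC it gave -2.3 to 0.14 for Serpinb2 in vehicle and -0.18 to 1.72 for F7 under CBPi. For the interaction it gave -0.11 to 0.33 for Plaur and -0.09 to 0.53 for F3. Correlations of Plau within groups were -0.224 (Acp5), -0.147 (Lat2) and -0.087 (Rab3il1).

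The labels do not say whether mMDSC and gMDSC of the same replicate number shared a mouse. Over 10 pairs the deviations from group means correlated at -0.031 to 0.168, and 4 of 10 libraries were closest to their own number. These correlations cannot settle whether the numbers are pairs. With the replicate block the interaction called 33 genes higher and 19 lower. In vehicle 1318 genes were higher and 696 lower in gMDSC, and under CBPi 2360 and 2221; no call among the 5 tested genes differed. Depth limits F7 (64 counts in CBPi mMDSC, 87 in CBPi gMDSC, 26 in vehicle gMDSC), Serpinb2 in vehicle gMDSC (126) and Tfpi (177 to 365 a group).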
